A study of Homo sapiens with 3 samples.

Results

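Matrix metalloproteases (MMPs) and the tissue inhibitors of metalloproteases (TIMPs) were examined in a human hepatocellular carcinoma line and its drug-resistant sublines. The family was defined as 10 genes, 7 proteases (MMP1, MMP2, MMP3, MMP7, MMP9, MMP14 and MMP15) and 3 inhibitors (TIMP1, TIMP2 and TIMP3). Every probe set annotated to any of them was taken, 21 probe sets out of 54675 on the array, which represents 19775 genes in all. The RNA came from the doxorubicin-resistant subline MHCC97L/DoxR, the cisplatin-resistant subline MHCC97L/CisR and the parental line MHCC97Low, from which both were generated. All were grown in the same medium with serum and received no treatment before RNA extraction. Each line was measured on 1 Affymetrix U133 Plus 2.0 array, so no difference can be set against a spread between cultures, and no test was possible. The drug doses of selection, and whether a subline was a clone, are not given in the sources used here.

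MMPs are zinc-dependent endopeptidases that cleave collagens, gelatin, laminin, proteoglycans and cell-surface proteins. They are made as inactive precursors and are opened by other proteases, such as plasmin, furin-like convertases and other MMPs. TIMPs bind the active site of the mature enzymes and block it, and in the liver the balance of both families is known for its part in fibrosis and in invasion by hepatocellular carcinoma.

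The values were MAS5 signals, a linear brightness per probe set in arbitrary units. Signals under 76.9, the pooled median of the 3 arrays, were treated as lying under a floor, because MAS5 values that low cannot be ranked. Genes that differed by 2-fold or more between 2 arrays were called. Where the dimmer signal was not above the floor, the fold is a bound and is given as "at least". The array medians were 73.3 in DoxR, 79.2 in CisR and 78.5 in parental cells, and the median log2 difference over all compared genes was 0.00 for DoxR against parental and 0.02 for CisR against parental. Of 8 hepatocyte markers on the array, 6 lay above the floor in DoxR, 7 in CisR and 6 in parental cells, with summed signals of 5554, 1494 and 10107. Of these markers, 2 of 7 compared were called higher and 2 lower in DoxR against parental, and 1 of 8 was called higher and 6 lower in CisR. Over all compared genes, 2.98% were called higher and 2.74% lower in DoxR, and 2.83% higher and 2.58% lower in CisR. Those that differed most were TF with signals of 404 in DoxR, 234 in CisR and 4925 in parental cells, FGB with 49.6, 291 and 1977, APOB with 816, 386 and 42.3, and ALB with 3115, 3.17 and 1545, each in this order of arrays. Fibroblast markers above the floor numbered 2 of 8 in DoxR, 4 in CisR and 2 in parental cells, with summed signals of 1553, 3393 and 803, of which lumican (LUM) gave 1167, 2632 and 258. COL1A2, COL3A1, PDGFRA and PDGFRB were at or under the floor on every array. Endothelial markers above the floor numbered 2 of 6 on each array, PECAM1 and KDR, with summed signals of 1065 in DoxR, 1133 in CisR and 1343 in parental cells. Leukocyte markers above it numbered 2 of the 6 on the array in DoxR, 3 in CisR and 1 in parental cells, with sums of 368, 604 and 455. ITGAM was above the floor on every array, and CDH5 and PTPRC were under it on every array. The part of these markers in the results below was not tested.

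Of the 21 probe sets, 16 had a value above the floor on at least 1 array and 15 on all of them. The 5 others were under it on all 3 arrays. They comprised the MMP3 probe set, 2 of the 3 for MMP2, 1 of the 4 for MMP14 and 1 of the 2 for MMP15. MMP3, stromelysin-1, therefore gave no comparison. Its signals were 3.03 in DoxR, 1.74 in CisR and 37.4 in parental cells, and no order can be read from them.

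**Figure D1:**
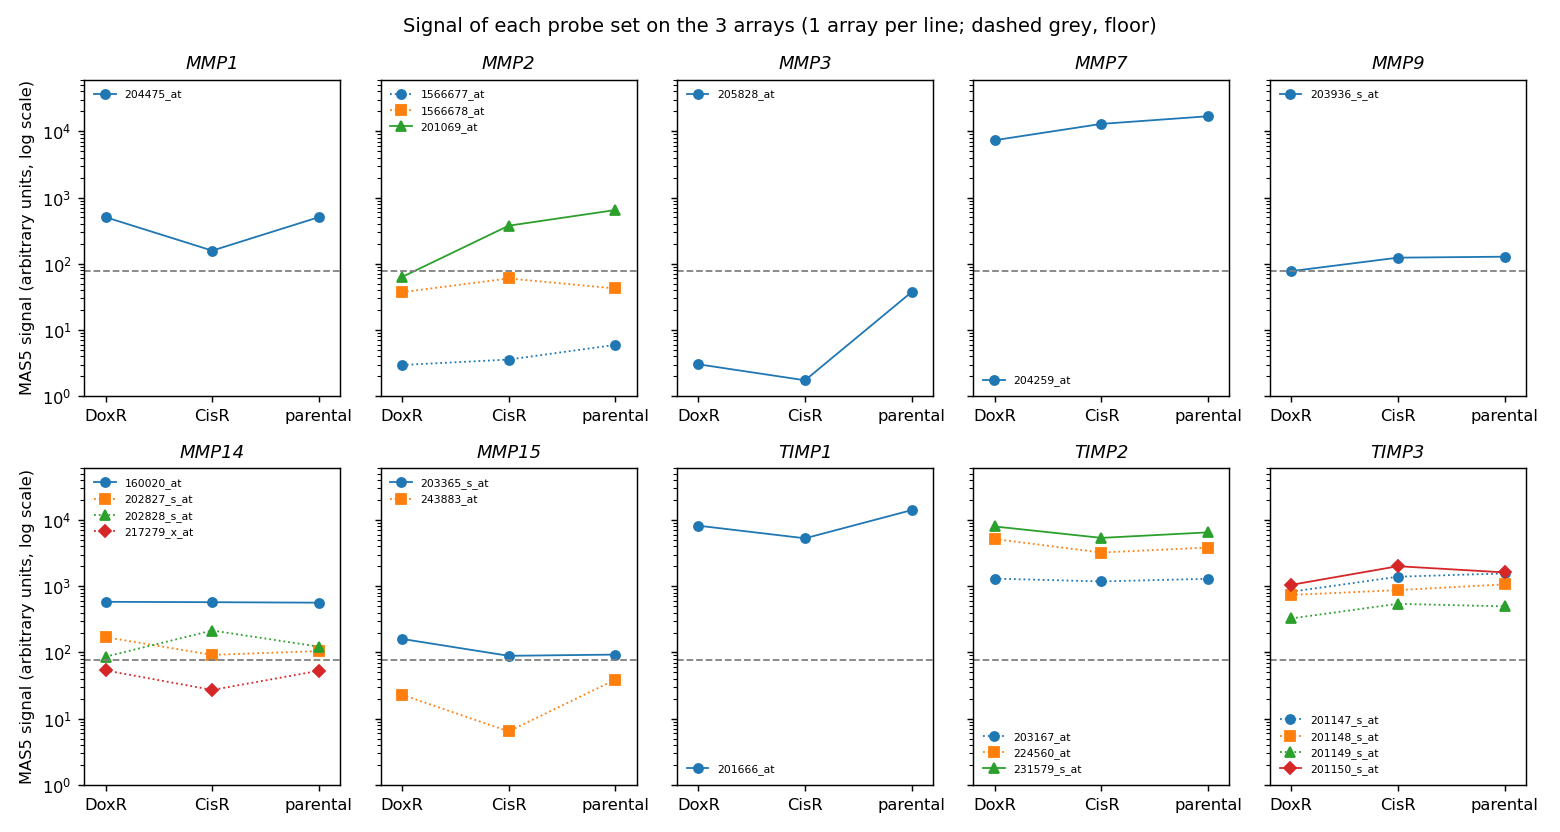
MAS5 signal (log scale) of all 21 probe sets of the 10 genes on the DoxR, CisR and parental arrays, 1 array per line. Solid lines mark the probe set that represents each gene, dotted lines its other probe sets and the dashed line the floor of 76.9. MMP2 falls below the floor in DoxR alone, MMP1 dips in CisR alone, and TIMP1 is lower in both sublines than in parental cells.

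In DoxR cells, 2 proteases were past 2-fold, and both were lower than in parental cells. Gelatinase A (MMP2) was at least 8.41-fold lower and matrilysin (MMP7) was 2.30-fold lower. In CisR cells, the 2 members past 2-fold were the collagenase MMP1 at 3.20-fold lower and the inhibitor TIMP1 at 2.66-fold lower. MMP2 and MMP7 were also below parental in CisR, by 1.72 and 1.30-fold, and TIMP1 in DoxR by 1.72-fold, all inside the limit. MMP1 in DoxR was level with parental cells. In bulk RNA, fewer cells expressing a gene and less RNA per cell cannot be told apart. No member was called higher than parental in either subline. Of the 9 genes that could be compared, 2 were called lower in DoxR against 2.74% of 12605 genes, and 2 were called lower in CisR against 2.58% of 12710 genes. The share of all genes called higher was 2.98% in DoxR and 2.83% in CisR. The members, and the gene lists below, were chosen with earlier results of these data known. Their counts beside the shares of all genes are therefore descriptive only. The median log2 difference from parental over the 9 genes was -0.62 in DoxR and -0.28 in CisR. Both comparisons use the same parental array, so their directions are not independent.

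**Figure D2:**
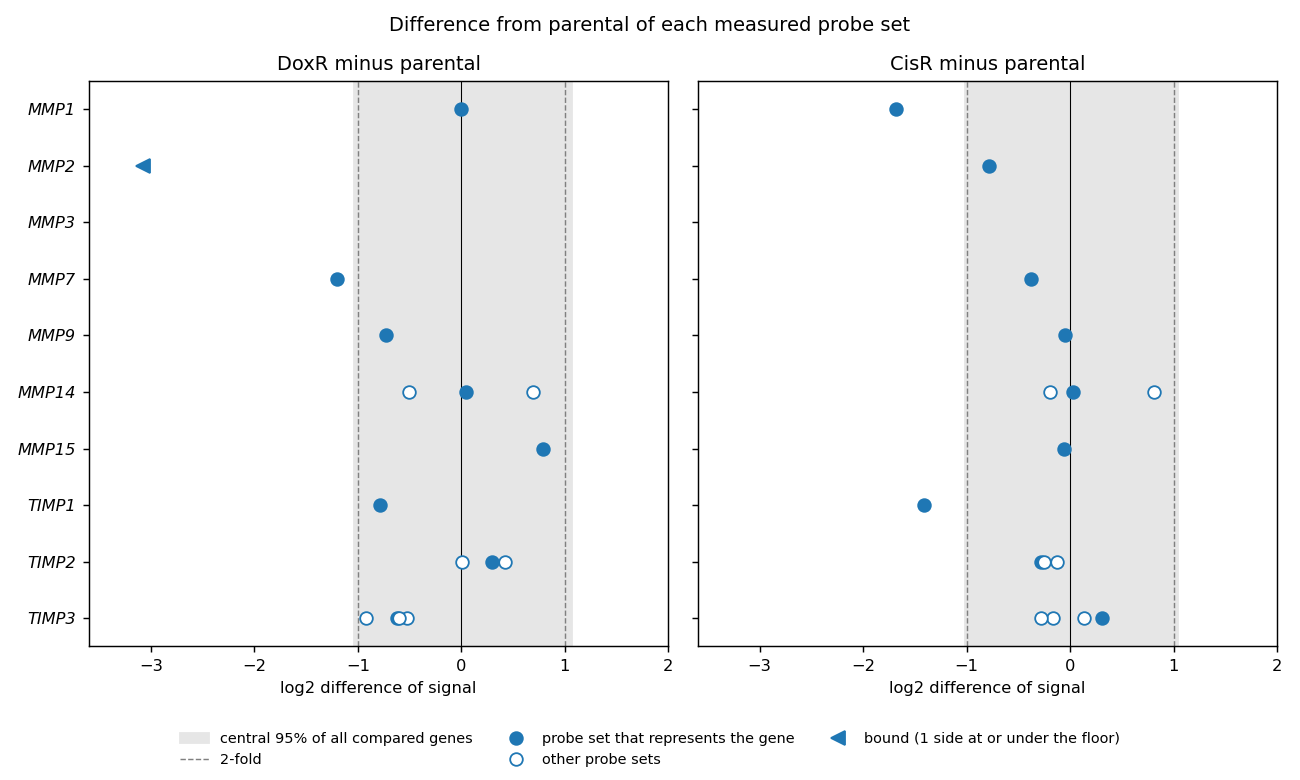
Log2 difference of signal from parental for each probe set with a value above the floor, for DoxR (left) and CisR (right). Filled symbols stand for the probe set that represents a gene, open symbols for its others and the triangle for a bound. Grey marks the central 95% of all compared genes, and dashed lines mark 2-fold. MMP2 and MMP7 lie left of the grey band in DoxR, and MMP1 and TIMP1 in CisR.

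Among the collagenases and gelatinases, MMP1, the interstitial collagenase that opens fibrillar collagen, was measured by 1 probe set (204475_at). Its signals were 505 in DoxR, 158 in CisR and 505 in parental cells. The CisR value stood alone below the other arrays, which differed by a log2 difference of 0.00. The log2 difference was -1.68 for CisR against parental, and 59 of 12710 compared genes (0.464%) lay lower, with bounds taken at their value here and in the ranks below. When compared genes were split into 3 groups of like size by signal, MMP1 fell in the dimmest in the CisR comparison, where 9.37% of genes passed 2-fold in either direction. With the floor raised to the 75th percentile of all values, the difference was at most -0.20, a bound that does not reach 2-fold.

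MMP2, gelatinase A, cleaves denatured collagen and basement membrane collagen. Its probe set 201069_at had signals of 63.0 in DoxR, 375 in CisR and 647 in parental cells. The DoxR value was the only one of the 3 at or under the floor. MMP2 was thus at least 8.41-fold lower in DoxR. In CisR it was 1.72-fold lower than in parental cells, inside the 2-fold limit. Its other probe sets, 1566677_at and 1566678_at, had signals from 2.96 to 60.0 over the 3 arrays, under the floor, and give no second measurement of the difference. With the floor at the 75th percentile of all values, the DoxR difference was a log2 of at most -0.56.

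MMP9, gelatinase B, is the second gelatinase of the family. Its signals were 77.3 in DoxR, 124 in CisR and 128 in parental cells. The DoxR value lay just above the floor, and the log2 difference from parental was -0.72 in DoxR and -0.05 in CisR. Neither reached 2-fold. MMP9 lies in the dimmest group of compared genes, where 9.61% passed 2-fold in the DoxR comparison, as does MMP2.

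MMP7, matrilysin, is a small protease without the hemopexin domain of the other members, and it is made by epithelial rather than stromal cells. Its signals were 7337 in DoxR, 12932 in CisR and 16859 in parental cells. DoxR had the lowest value and parental the highest, all far above the floor. The log2 difference was -1.20 in DoxR, with 205 of 12605 genes (1.63%) lower, and -0.38 in CisR. The gene lies in the brightest group, where 2.40% of genes passed 2-fold in the DoxR comparison. With 1 probe set far above every floor, the other floors and probe-set choices could not change its difference in DoxR. That difference was -1.21 with quantile normalization, -1.19 with a pseudocount and -1.15 with the neighbours' median subtracted, all past 2-fold.

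The RefSeq promoter table (GRCh38.p14, from 250 bases before to 50 after the start) held 5 of the 10 members, MMP7, MMP14, MMP15, TIMP1 and TIMP3. Sequences are shown for the 2 of these that were past 2-fold. Many MMP promoters carry a site for AP-1, the FOS and JUN transcription factor, next to a site for ETS factors. The AP-1 letters TGANTCA, which read the same on both strands, were found in MMP7 alone among the 5, and in 7.71% of 35116 promoters of this length. The match, in capitals, begins 67 bases before the start, and the ETS core GGAA, read on the opposite strand, follows 5 bases after it. This pairing within 20 bases was present in 3.24% of promoters. The promoter of MMP7 lies at chr11:102530698-102530997 on the minus strand and is given in the direction of the gene.
MMP7: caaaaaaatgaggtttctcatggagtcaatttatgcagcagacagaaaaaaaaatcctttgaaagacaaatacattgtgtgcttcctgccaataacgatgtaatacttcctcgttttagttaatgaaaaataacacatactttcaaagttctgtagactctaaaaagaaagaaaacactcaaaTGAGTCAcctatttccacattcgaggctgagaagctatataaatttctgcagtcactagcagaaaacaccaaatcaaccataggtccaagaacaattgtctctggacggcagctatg

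Among the membrane-type proteases, MMP14 activates the precursor of MMP2 at the cell surface. Its brightest probe set (160020_at) had signals of 581 in DoxR, 574 in CisR and 564 in parental cells. The 3 values lay close together, with log2 differences from parental of 0.04 in DoxR and 0.02 in CisR. The other measured probe sets went in opposite directions. Probe set 202827_s_at had 170 in DoxR, 91.8 in CisR and 105 in parental cells, and 202828_s_at had 86.3, 214 and 122. The first is highest in DoxR and the second highest in CisR. Their log2 differences from parental were 0.70 and -0.50 in DoxR, and -0.19 and 0.81 in CisR. Between the sublines 202828_s_at was 2.48-fold lower in DoxR than in CisR, while 202827_s_at was 1.85-fold higher. These dim probe sets do not give a direction for the gene.

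MMP15, another membrane-type protease, was measured by 203365_s_at at 160 in DoxR, 88.9 in CisR and 92.8 in parental cells. DoxR was the high array, and the CisR and parental values were close to the floor. The log2 difference from parental was 0.79 in DoxR and -0.06 in CisR, under 2-fold in both.

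Among the inhibitors, TIMP1, a secreted glycoprotein that blocks most soluble MMPs and binds the MMP9 precursor, had signals of 8196 in DoxR, 5288 in CisR and 14091 in parental cells (201666_at). Both sublines were below parental, and CisR was the lower of them. The log2 difference was -0.78 in DoxR and -1.41 in CisR, where 134 of 12710 genes (1.05%) lay lower. TIMP1 lies in the brightest group of genes, where 1.96% passed 2-fold in the CisR comparison. The AP-1 letters TGANTCA were not found in its 300 bases. The variant TGAGTAA, searched on both strands after the sequence had been read, was present 101 bases before the start and is in capitals. It occurred in 2.57% of promoters and in none of the other 4 members. The promoter of TIMP1 lies at chrX:47582186-47582485 (GRCh38.p14) on the plus strand.
TIMP1: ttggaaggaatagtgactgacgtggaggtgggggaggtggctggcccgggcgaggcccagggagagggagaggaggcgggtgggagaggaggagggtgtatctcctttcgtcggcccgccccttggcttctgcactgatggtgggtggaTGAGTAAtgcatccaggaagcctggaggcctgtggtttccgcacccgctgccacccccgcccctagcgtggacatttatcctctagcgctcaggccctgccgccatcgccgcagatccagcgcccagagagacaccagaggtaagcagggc

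TIMP2 inhibits MMPs and also bridges the MMP2 precursor to MMP14 during activation. Its brightest probe set (231579_s_at) had signals of 7974 in DoxR, 5364 in CisR and 6503 in parental cells. All 3 probe sets were highest in DoxR and lowest in CisR. Their log2 differences from parental were 0.01 to 0.43 in DoxR and -0.28 to -0.13 in CisR. None reached 2-fold, and between the sublines TIMP2 was 1.10 to 1.60-fold higher in DoxR.

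TIMP3, which is held in the matrix and also inhibits sheddases of the ADAM family, was measured by 4 probe sets, all above the floor. The brightest (201150_s_at) had signals of 1048 in DoxR, 2004 in CisR and 1615 in parental cells. The other 3 ranged from 326 to 825 in DoxR, from 542 to 1391 in CisR and from 496 to 1561 in parental cells. In DoxR every probe set was below its parental value, by 1.44 to 1.89-fold, with log2 differences of -0.92 to -0.53. In CisR 2 probe sets were below and 2 above parental, from -0.29 to 0.31. No probe set of TIMP3 reached 2-fold from parental on either array.

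The direct comparison of the sublines asked where the resistance backgrounds differ from each other. MMP1 was 3.20-fold higher and MMP2 at least 4.88-fold lower in DoxR than in CisR. The other 7 compared members were within 2-fold. Over all 12604 genes 3.05% were called higher and 3.30% lower. The inhibitors went in different directions between the sublines, with log2 differences of 0.63 for TIMP1, 0.57 for TIMP2 and -0.94 for TIMP3. MMP7 was at -0.82 and MMP15 at 0.85.

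The members past 2-fold were also set beside their neighbours on the chromosome. TIMP1 lies on chromosome X, where 77.9% of 411 compared genes were below parental in DoxR and 76.4% of 406 in CisR. Over all compared genes, the share below parental was 49.6% in DoxR and 47.8% in CisR. The median of the 15 nearest compared genes around TIMP1 was -0.46 in DoxR and -0.95 in CisR. Of the 7 compared genes on each side, 13 of 14 were below parental in CisR and 11 of 14 in DoxR. The immediate neighbours were the kinase gene ARAF at -0.50 in DoxR and -1.04 in CisR, and the ETS factor gene ELK1 at -0.66 and -1.37. Next to these, UXT was at -0.32 in DoxR and -1.20 in CisR, and ZNF81 at -0.93 and -1.58. With the neighbours' median subtracted, TIMP1 was at -0.32 in DoxR. In CisR it was at -0.47, no longer past 2-fold.

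The other members past 2-fold did not move with their neighbours in this way. MMP1 and MMP7 lie in the MMP cluster of chromosome 11. In CisR the 15 genes nearest MMP1 had a median of 0.10, and 9 of the 14 closest were above parental, while MMP1 itself was at -1.68. In DoxR the genes nearest MMP7 had a median of -0.05, against -1.20 for MMP7, though 9 of the 14 closest were below parental. MMP27, between the 2 in the order of compared genes, was above the floor in parental cells alone, at 85.6, with 51.5 in DoxR and 42.9 in CisR. MMP2 lies on chromosome 16, and the genes nearest to it had a median of 0.13 in DoxR, where MMP2 was at most -3.07. Of its closest neighbours, IRX5 was at -0.37 there and CES1 at -0.29. LPCAT2 was itself just past 2-fold lower than parental, with signals of 245 in DoxR, 369 in CisR and 490 in parental cells. Of the 14 closest genes, 8 were above parental in DoxR, among them CRNDE at 0.28 and NUDT21 at 0.33, and 6 below. Subtracting the neighbours' median gave -1.78 for MMP1 in CisR, and -1.15 for MMP7 and at most -3.20 for MMP2 in DoxR, all still past 2-fold.

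**Figure D3:**
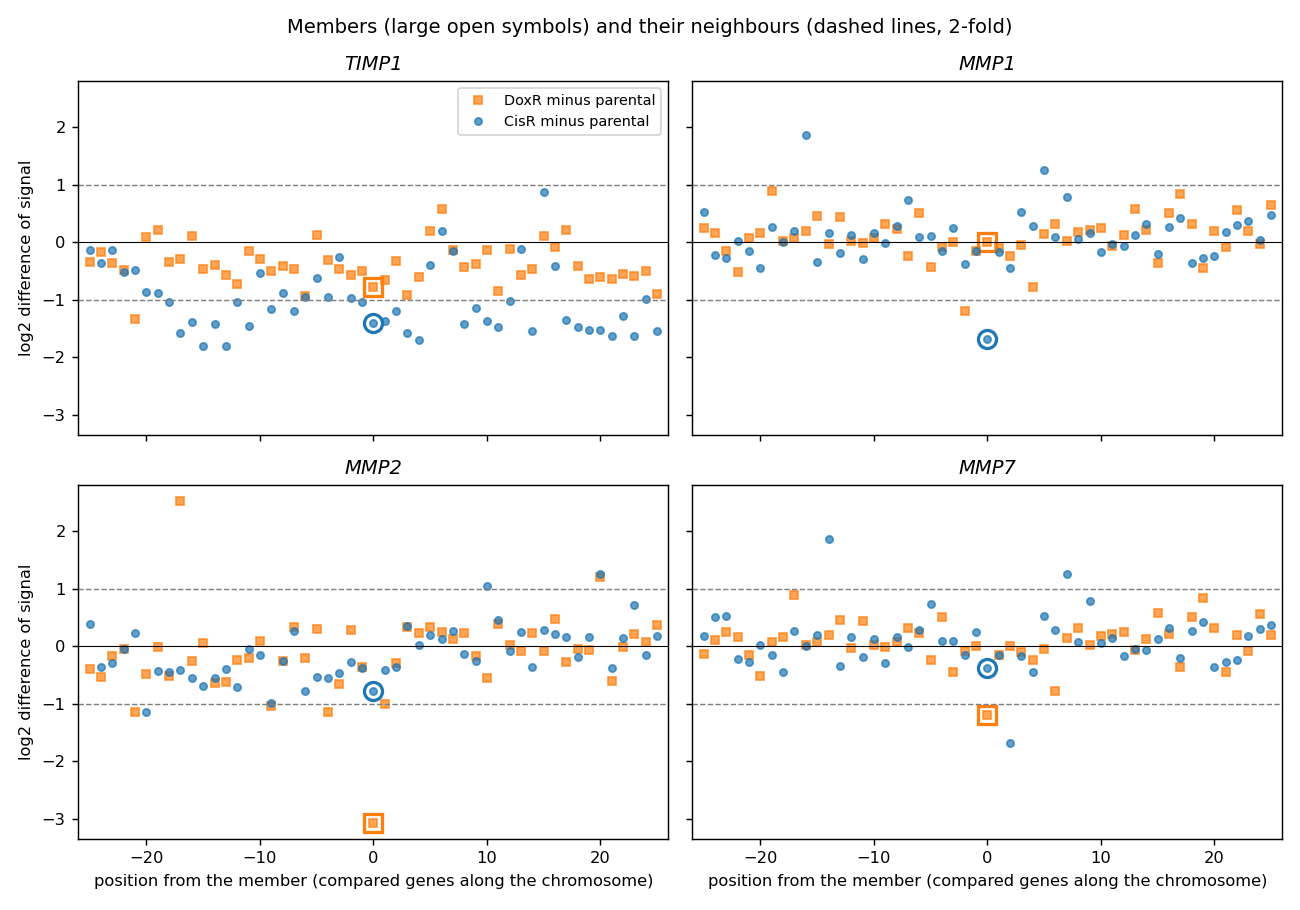
Log2 difference from parental of TIMP1, MMP1, MMP2 and MMP7 (large open symbols) and of up to 25 compared genes on each side in chromosome order, with squares for DoxR and circles for CisR. Dashed lines mark 2-fold, and genes at or under the floor on 1 side are drawn at their bound. The genes around TIMP1 lie mostly below 0, and TIMP1 lies within their range, whereas MMP1 in CisR and MMP2 and MMP7 in DoxR lie below nearly all of their neighbours.

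The genes with the most similar pattern were taken as those with the smallest distance over the log2 differences of both sublines from parental, among 11126 genes above the floor on all 3 arrays. With 3 arrays this describes a shape and no more. For MMP1 they were the keratin gene KRT7 at a distance of 0.04, the inhibitory SMAD gene SMAD7 at 0.08 and ZCCHC2 at 0.11, and 9 genes lay within 0.25. For MMP2, taken at the floor in DoxR, they were the cancer-testis antigen gene MAGEA12 at 0.24, the collagen VI chain gene COL6A3 at 0.61 and PKIB, a protein kinase A inhibitor gene, at 0.78. Only MAGEA12 lay within 0.25 of MMP2. Genes under the floor in DoxR, as MMP2 is, were not searched, so this count cannot be compared with those of the other members. For MMP7 they were LOC105372255, the semaphorin receptor gene PLXNA1 and GPR137B at 0.06 to 0.10, with 45 genes within 0.25. For TIMP1 they included AMBP, the precursor gene of alpha-1-microglobulin and bikunin, at 0.03 and the cold-inducible RNA-binding protein gene RBM3 at 0.08, with 27 genes within 0.25. RBM3 also lies on chromosome X.

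The other genes of matrix proteolysis were described from lists of pathway members. Of 16 other MMPs, 15 were on the array under 1 symbol, and most were under the floor. In DoxR 4 could be compared and in CisR 6, and none was called at 2-fold. All compared values but those of MMP11 and MMP19 are bounds, such as at most -0.28 for MMP24 in both sublines and at least 0.93 for MMP28 in CisR. The stromelysin-3 gene MMP11 was at -0.46 in DoxR and -0.06 in CisR, and MMP19 at 0.79 and 0.35. A second probe set of MMP11, above the floor in DoxR alone, went the other way there, at a bound of 0.15. Of 4 other inhibitors of metalloproteases none was called. TIMP4 was at -0.16 in DoxR and -0.04 in CisR, and RECK, a membrane-anchored inhibitor of MMP2, MMP9 and MMP14, at -0.12 and -0.17. The 4 compared probe sets of RECK did not share a direction. They ranged from -0.60 to 0.40 in DoxR, with 2 below and 2 above parental. In CisR they ranged from -0.17 to 0.86, with 1 below and 3 above.

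Among ADAM and ADAMTS proteases, 1 of 11 compared genes was called lower in DoxR, against 2.74% of all genes, and none of 12 was called in CisR. The sheddase gene ADAM19 had signals of 144 in DoxR, 280 in CisR and 338 in parental cells, 2.35-fold lower in DoxR. Its weaker probe set had a log2 difference of -0.29 there. In plasminogen activation, 1 of 6 compared genes was called lower in DoxR, against 2.74% of all genes, and none was called in CisR. The tissue plasminogen activator gene PLAT had 44.5 in DoxR, 207 in CisR and 159 in parental cells, at least 2.06-fold lower in DoxR, and at least 2.69-fold lower than in CisR. Both values rest on 1 probe set.

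Among activators and inducers of MMPs, 2 of 10 compared genes were called higher and none lower in DoxR, against 2.98% and 2.74% of all genes. In CisR 1 of 11 was called higher and 1 lower, against 2.83% and 2.58%. Calls rest on the brightest probe set of a gene. TMPRSS2 was not called in CisR, at a log2 difference of 0.69. Its 3 compared probe sets ranged there from 0.27 to 1.76, with bounds taken at their value. The proprotein convertase gene PCSK5 had signals of 1207 in DoxR, 582 in CisR and 570 in parental cells, and it was 2.12-fold higher in DoxR than in parental cells and 2.07-fold higher than in CisR. Its relative PCSK6 had 449 in DoxR, 549 in CisR and 221 in parental cells, which is 2.03-fold higher in DoxR and 2.49-fold higher in CisR. Its other probe set had log2 differences of 0.55 in DoxR and 0.53 in CisR, under 2-fold in both. Basigin (BSG), the surface glycoprotein known as an inducer of MMP production in neighbouring stromal cells, had 2891 in DoxR, 1528 in CisR and 3204 in parental cells. It was 2.10-fold lower in CisR.

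Among the AP-1 and ETS factors that bind MMP promoters, 2 of 13 compared genes were called higher in DoxR, against 2.98% of all genes, 1 of 13 in CisR, against 2.83%, and none lower in either. The stress-induced factor gene ATF3 had 1379 in DoxR, 533 in CisR and 475 in parental cells. In DoxR it was 2.91-fold higher than in parental cells and 2.59-fold higher than in CisR. Its other probe set was under 2-fold in both, with log2 differences of 0.46 from parental and 0.90 from CisR. The ETS factor gene ETV1 had 296 in DoxR, 537 in CisR and 112 in parental cells, 2.64-fold higher in DoxR and 4.79-fold higher in CisR. Its 4 probe sets ranged in log2 difference from 0.29 to 1.40 in DoxR and from 0.78 to 2.26 in CisR. The median log2 difference of the list was 0.28 in DoxR and -0.04 in CisR.

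**Figure D4:**
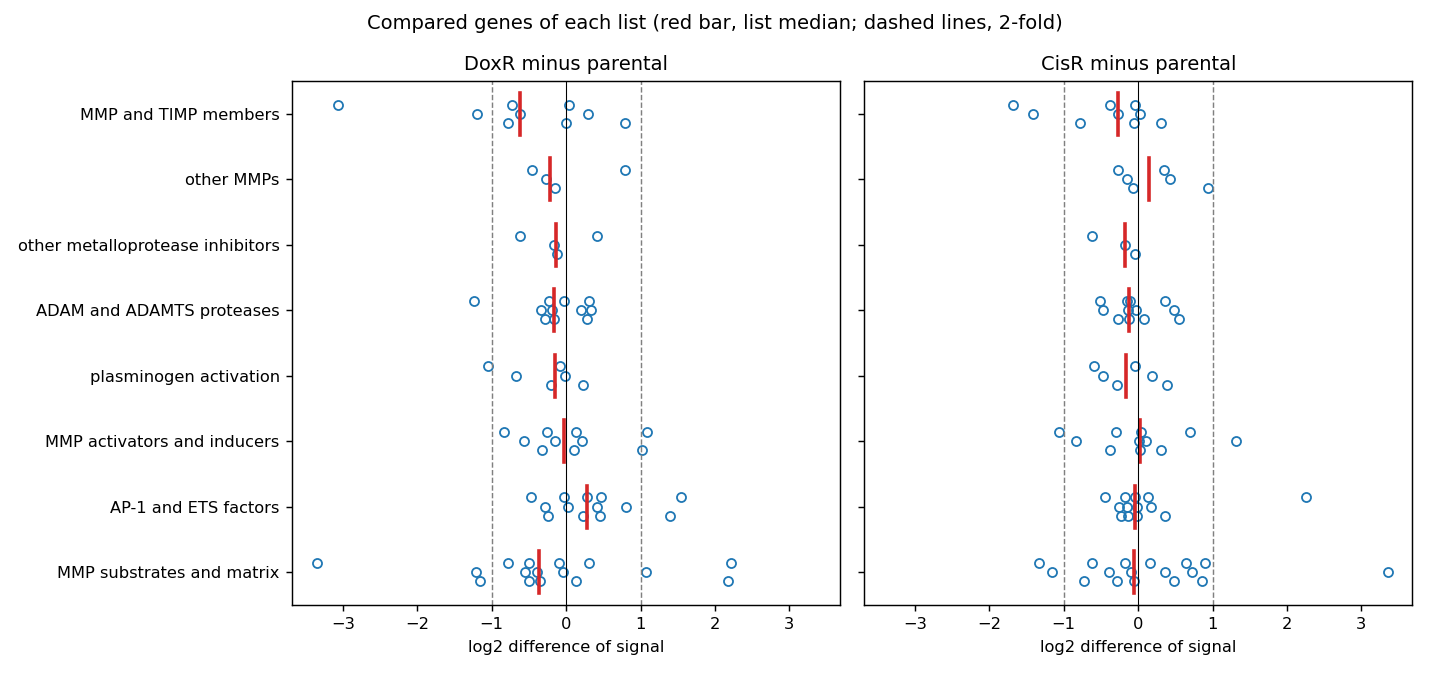
Log2 difference from parental of the compared genes of each list for DoxR (left) and CisR (right), 1 circle per gene, with the list median as a red bar and 2-fold as dashed lines. Bounds are drawn at their value, and vertical offsets within a list only separate the circles. The MMP and TIMP members have a median of -0.62 in DoxR and -0.28 in CisR, with no member at 2-fold or more on the right.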

How the data were processed

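Gene expression was measured on 1 array for each of 3 cell lines. The deposited values are a linear intensity (signal) per probe set, and the submitters' processing notes name MAS5, with no version. After trimming 2.0% of probe sets at each end, every array averaged 499.9, the form that global scaling gives. MAS5 subtracts mismatch signal, which makes low values noisy. Detection calls were not used here.

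The array holds 54675 probe sets. Of these, 41097 had 1 gene symbol in the platform annotation, 1801 had more than 1 and were left out of gene values, and 11721 that were not controls had no symbol in the table used here. There were 62 control probe sets, 6 of which had a gene symbol and are among the 41097. Symbols were updated through Entrez identifiers in a RefSeq table of GRCh38.p14 (99.9% matched), which also gave the order of genes along chromosomes. Values below the floor of 76.9 were set to it, and log2 followed. For each gene the probe set of highest mean log2 signal was used, and the gene was compared when at least 1 of the 2 values was above the floor. With 1 array per group no p-value, SE or SD was computed, so the number of arrays limits precision. The steps were tested on simulated data with changes set only in genes far above the floor. Calls near the floor were not tested in this way. Python 3.11.15, numpy 2.4.6 and pandas 2.3.3 were used.

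The members and lists were chosen with earlier results of these data known. Named genes were all members, up to 4 genes of each list that differed most among those past 2-fold in each comparison, the 3 genes nearest in pattern to each member past 2-fold, and neighbours on the chromosome. Of the neighbours, only some are named, and 1 gene near TIMP1 in pattern is not reported here. MMP11, MMP19, MMP24, MMP27, MMP28, TIMP4, RECK, TMPRSS2 and the markers COL1A2, COL3A1, PDGFRA, PDGFRB, PECAM1, KDR, CDH5, ITGAM and PTPRC were named after their values were seen. Protein sequences were not used here. Alternatives were 2 other floors, 2 other choices of probe set, quantile normalization, a pseudocount of 50 in place of the floor, and subtraction of the median of the 15 nearest genes.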

Additional observations from a re-analysis of the deposited data

How the results depend on the processing

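Of 176 recomputed differences of single members, 172 kept their side of the 2-fold limit, 4 fell inside it, and none of those past 2-fold changed sign. Many of them could not change. The floor does not affect bright genes, and the choice of probe set does not affect genes with 1 probe set. Members that could not be compared under a setting are not among the 176. With the floor at the 75th percentile of all values (440), the number of members past 2-fold was 1 in DoxR against parental (MMP7), 1 in CisR against parental (TIMP1) and 0 in DoxR against CisR, because the dimmer side of MMP1 and, against parental, of MMP2 is raised to that floor. In DoxR against CisR both signals of MMP2 lie under it, so it was not compared. With the median over a gene's probe sets it was 1 in DoxR against parental and 1 in DoxR against CisR, since MMP2, with 2 of its 3 probe sets under the floor, had no value. With the neighbours' median subtracted it was 1 in CisR against parental (MMP1), since TIMP1 was at -0.47. The 25th percentile as floor, probe sets without shared-sequence suffixes, quantile normalization and a pseudocount left 2 members past 2-fold in each comparison. The share of all genes past 2-fold in DoxR against parental was 5.72%, and 12.1% and 3.12% with the lower and higher floor. In CisR against parental it was 5.41%, 11.7% and 2.73%, and in DoxR against CisR 6.36%, 12.7% and 3.82%. No paired analysis was possible because each line had 1 array. Signal near the floor limits MMP3, MMP9, MMP15 and the dim probe sets of MMP14.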

Other observations

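Against parental cells, genes of matrix proteins that MMPs cut went in both directions. Of 16 compared genes of the substrate list, 3 were called higher and 3 lower in DoxR against parental, where 2.98% of all genes were called higher and 2.74% lower. In CisR 1 of 17 was called higher and 2 lower, where the shares of all genes were 2.83% and 2.58%. Between the sublines, 1 of 15 was called higher and 6 lower in DoxR than in CisR, where the shares of all genes were 3.05% and 3.30%. The median log2 difference of the list was -0.37 in DoxR and -0.05 in CisR, against 0.00 and 0.02 over all compared genes. The collagen VI chain gene COL6A3 had signals of 147 in DoxR, 597 in CisR and 1499 in parental cells, 10.2-fold lower in DoxR and 2.51-fold lower in CisR, by 1 probe set. Its partner chain gene COL6A2 had 1409 in DoxR, 4499 in CisR and 2413 in parental cells, 3.19-fold lower in DoxR than in CisR, with its second probe set at a log2 difference of -0.91. The basement membrane collagen gene COL4A5 had 38.0 in DoxR, 324 in CisR and 178 in parental cells, at least 2.32-fold lower in DoxR than in parental cells. The collagen-binding glycoprotein gene SPARC had 12.2 in DoxR, 59.7 in CisR and 172 in parental cells, at least 2.24-fold lower in both sublines. The proteoglycan gene VCAN had 1098 in DoxR, 142 in CisR and 236 in parental cells, 4.66-fold higher in DoxR, with all 5 measured probe sets on that side. The small proteoglycan gene LUM was 4.53-fold higher in DoxR and 10.2-fold higher in CisR than in parental cells, and its second probe set was at a bound of 0.07 on the log2 scale in CisR.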
